A study of Mus musculus with 6 samples.

Results

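Interferon-stimulated genes (ISGs) were followed in RNA-seq of control and senescent mouse adult fibroblasts (MAFs). The group held 43 genes, listed by symbol, of the 43346 genes in the table of counts, and each symbol matched 1 gene. All 43 passed the filter on low counts and were tested. ISGs are the genes that cells switch on when interferon binds its receptor. The type I interferon receptor acts through the kinases JAK1 and TYK2, which phosphorylate STAT proteins, and STAT2 acts with IRF9 in the factor ISGF3. Many ISG products sense foreign RNA, cut it, block its translation or trap viruses at membranes, and a low level is present in many cells without infection. In senescent fibroblasts, interferon signaling is known as a late part of the response to DNA damage.

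MAFs were primary cells of ear skin from C57BL6/J mice, adult and female, and the number of animals or separate cultures behind the samples is not given in the sources used here. The senescent group (3 samples) received 20 Gy of X-rays and was then cultured for 21 days, and the control group (3 samples) was sham irradiated. Irradiation, time after it and the senescent state therefore cannot be told apart. Cells of both groups were kept at 3% oxygen, received 100 nM dexamethasone (a glucocorticoid used to set the circadian clock) for 2 hours, and were collected 12 hours later. Nothing says whether samples of a group came from separate animals, so p-values measure the spread between these samples, which may be technical.

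Total counts lay between 50288454 and 82229553 per library. Levels are given as CPM, the counts relative to the library total after TMM scaling, or as RPKM, the same per kilobase of gene length, where genes are compared with each other. Senescent replicate 3 stood apart, and results are given without it where it changed a call or where a gene lay farthest from the other senescent libraries. Over 14007 genes its median absolute distance from the mean of the other senescent libraries was 0.213 on the log2 scale, against 0.108 and 0.124 for senescent replicates 1 and 2. Of 9 fibroblast markers, 3 were higher and 5 were lower at an adjusted p under 0.05, against 36.2% and 34.1% of all tested genes. Together they summed to 17810 to 19900 CPM in control and 6709 to 8011 CPM in senescent libraries. In bulk RNA, a change in the number of expressing cells and a change in RNA per cell cannot be told apart.

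Most ISGs were higher in senescent MAFs, and a smaller set that includes *Stat2* and *Irf1* was lower. At an adjusted p under 0.05, 32 of the 43 ISGs were higher (74.4%), against 36.2% of all 17589 tested genes, and 6 were lower (14.0%), against 34.1% of all. The median log2 fold change was 0.81 over the ISGs and 0.01 over all tested genes. Without senescent replicate 3, 33 were higher and 7 lower, against 39.7% and 37.4% of all genes tested then. With a fold change over 2 and an unadjusted p under 0.05, 18 were higher, against 17.8% of all tested genes. No ISG was lower by this rule in edgeR's quasi-likelihood test, the exact test of edgeR or DESeq2, against 12.3% of all genes. In 33 ISGs every senescent library was above every control library and in 6 every one was below, against 38.4% and 37.0% of all tested genes, or 75.3% for both directions.

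**Figure D1:**
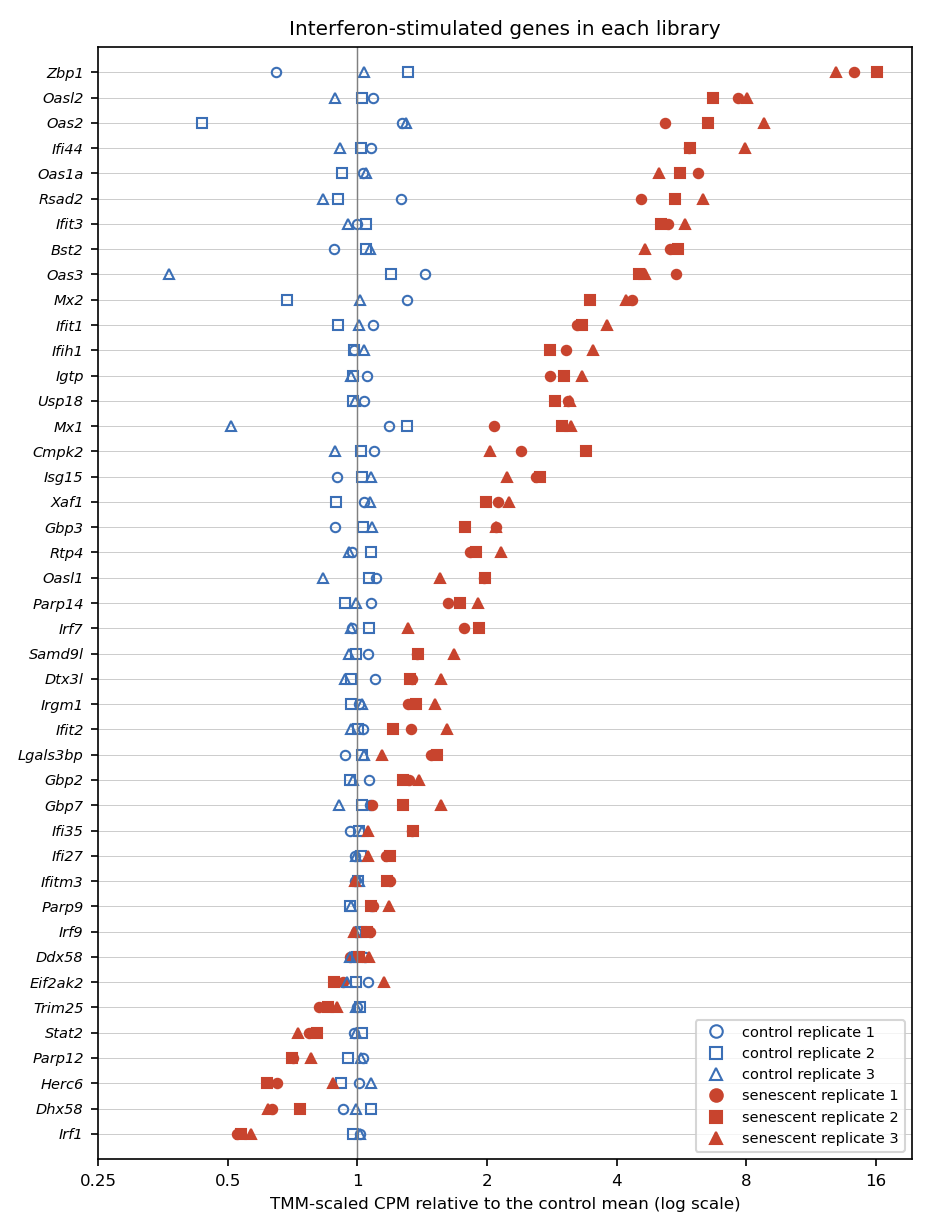
Level of each of the 43 ISGs in each library as TMM-scaled CPM divided by the mean of the 3 control libraries, on a log axis, with genes ordered by fold change. Open blue symbols are control and filled red symbols senescent libraries, and shapes mark the replicate number. *Zbp1* at the top lies above 8 in all senescent libraries, and *Irf1* at the bottom lies near 0.5.

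Enzymes of the oligoadenylate synthetase (OAS) family make the short adenylate chains that activate RNase L. All 5 genes of the family among the 43 were higher, against 36.2% of all tested genes. *Oasl2* (chromosome 5 of mm10 from 114896936 to 114912234) stood at 1.58, 1.49 and 1.29 CPM in control replicates 1, 2 and 3 and at 11.1, 9.72 and 11.7 CPM in senescent replicates 1, 2 and 3. The groups lay far apart, with a log2 fold change of 2.90 (SE 0.12, adjusted p = 4.81e-07). *Oas1a* stood at 0.862, 0.770 and 0.879 CPM in control and 5.18, 4.71 and 4.21 CPM in senescent libraries, a log2 fold change of 2.49 (SE 0.14). *Oas2* stood at 0.341, 0.117 and 0.347 CPM in control and 1.39, 1.75 and 2.36 CPM in senescent libraries. Its senescent values spread widely, with replicate 3 at the top, and its log2 fold change was 2.82 with a larger SE of 0.36. *Oas3* was the least abundant ISG, with 4, 4 and 1 counts in control and 17, 20 and 22 counts in senescent libraries, a log2 fold change of 2.22 (SE 0.41, adjusted p = 0.00160). *Oasl1*, which in mouse cells restrains translation of *Irf7* RNA, had the smallest rise of these 5, 0.87 (SE 0.17). *Oas1a* has close relatives next to it on the chromosome, between which reads could have been split. Of these, not among the 43, *Oas1g* was higher, with a log2 fold change of 2.58 (SE 0.38). *Oas1b* did not pass the test (0.31, adjusted p = 0.0522, edgeR) and *Oas1c* was lower (-0.38, adjusted p = 0.0436, edgeR).

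The IFIT proteins bind viral RNA ends and block translation. *Ifit3* (chromosome 19 of mm10 from 34583531 to 34588731) stood at 4.49, 4.70 and 4.27 CPM in control and 23.6, 22.7 and 25.9 CPM in senescent libraries. This was one of the tightest of the large differences, with a log2 fold change of 2.42, an SE of 0.09 and an adjusted p of 2.13e-07. Its near copy *Ifit3b*, not among the 43, had a log2 fold change of 1.26 (SE 0.17), and reads could have been shared between the pair. *Ifit1* stood at 5.33, 4.40 and 4.95 CPM in control and 15.9, 16.3 and 18.6 CPM in senescent libraries, a log2 fold change of 1.79 (SE 0.11). *Ifit2*, of the same gene cluster, was already 24.8 ± 0.819 CPM in control MAFs and reached 34.3 ± 5.15 CPM in senescent MAFs (n = 3 each, SD), and its log2 fold change was 0.47 (SE 0.11, adjusted p = 0.00526). The 3 neighbours thus rose by unequal amounts.

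Sensors of nucleic acids went in different directions. *Zbp1* (chromosome 2 of mm10 from 173206612 to 173218923), which senses Z-form nucleic acid and can start necroptosis, had the largest fold change of the 43. It stood at 0.140, 0.284 and 0.225 CPM in control and 3.09, 3.48 and 2.81 CPM in senescent libraries, a log2 fold change of 3.82 (SE 0.22, adjusted p = 2.48e-06), from 7 to 17 counts to 171 to 276 counts. *Ifih1*, which encodes the long double-stranded RNA sensor MDA5, stood at 5.61, 5.62 and 5.93 CPM in control and 17.5, 16.1 and 20.1 CPM in senescent libraries, a log2 fold change of 1.65 (SE 0.10). *Ddx58*, which encodes RIG-I, the sensor of RNA with a 5′ triphosphate, stood at 73.5, 70.3 and 68.0 CPM in control and 67.7, 71.4 and 74.9 CPM in senescent libraries. Its groups overlapped (log2 fold change 0.02, SE 0.06, adjusted p = 0.833). *Dhx58*, which encodes LGP2, the helper of MDA5 without a signaling domain, stood at 4.67, 5.42 and 5.01 CPM in control and 3.19, 3.71 and 3.12 CPM in senescent libraries, a log2 fold change of -0.59 (SE 0.11, adjusted p = 0.00186). The antisense gene *Dhx58os* covers 2637 bases of *Dhx58* and had 112 to 157 counts in control and 58 to 150 counts in senescent libraries, and the strand setting of the counting is not given in the sources used here. *Eif2ak2*, which encodes the kinase PKR, stood at 67.7, 63.7 and 60.6 CPM in control and 59.2, 56.6 and 73.8 CPM in senescent libraries. Here senescent replicate 3 lay above every control library and the other senescent libraries below, so the log2 fold change of -0.02 (SE 0.10) turned into a fall of -0.14 (SE 0.05, adjusted p = 0.0184) without that library.

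The transcription factors among the ISGs were mostly flat or lower. *Irf1* (chromosome 11 of mm10 from 53770014 to 53778374), a factor that responds quickly to interferon gamma, stood at 25.3, 24.4 and 25.3 CPM in control and 13.1, 13.4 and 14.1 CPM in senescent libraries. The groups lay well apart and it had the largest decrease of the 43, a log2 fold change of -0.88 (SE 0.07, adjusted p = 1.23e-05). *Stat2* stood at 51.3, 53.5 and 51.9 CPM in control and 40.4, 42.1 and 38.1 CPM in senescent libraries, a log2 fold change of -0.38 (SE 0.06, adjusted p = 0.000773). *Irf9*, the DNA-binding subunit of ISGF3, stood at 37.6, 38.7 and 37.3 CPM in control and 40.4, 39.8 and 37.2 CPM in senescent libraries. Its groups overlapped, with a log2 fold change of 0.05 (SE 0.06, adjusted p = 0.507). *Irf7*, which drives interferon alpha genes, was the only one of these 4 factors that rose, from 4.71, 5.17 and 4.70 CPM to 8.59, 9.30 and 6.36 CPM, a log2 fold change of 0.73 (SE 0.15, adjusted p = 0.00275). Senescent replicate 3 was the lowest of its senescent values and still above the control values.

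ISG15 is a small ubiquitin-like protein that is attached to other proteins, and its own enzymes were split. *Isg15* (chromosome 4 of mm10 from 156199424 to 156200818) stood at 4.43, 5.05 and 5.31 CPM in control and 12.8, 13.1 and 11.0 CPM in senescent libraries, a log2 fold change of 1.32 (SE 0.11, adjusted p = 1.97e-05). *Usp18*, which removes ISG15 and also blocks the type I interferon receptor, stood at 2.95, 2.78 and 2.82 CPM in control and 8.77, 8.22 and 8.89 CPM in senescent libraries, a log2 fold change of 1.60 (SE 0.09). *Herc6*, which encodes the main enzyme that attaches ISG15 in mouse cells, stood at 12.3, 11.2 and 13.2 CPM in control and 7.96, 7.53 and 10.7 CPM in senescent libraries, a log2 fold change of -0.48 (SE 0.14, adjusted p = 0.0177). So the modifier and its protease rose while the ligase fell. *Trim25*, a ubiquitin ligase that acts on RIG-I, had 76.4 ± 0.869 CPM in control and 65.4 ± 3.11 CPM in senescent MAFs (n = 3 each, SD) and fell, with a log2 fold change of -0.23 (SE 0.06, adjusted p = 0.00799).

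The ADP-ribosyltransferases and their partner were split as well. *Parp14* stood at 11.2, 9.72 and 10.3 CPM in control and 16.9, 18.0 and 19.8 CPM in senescent libraries, a log2 fold change of 0.81 (SE 0.09), and *Dtx3l*, a ubiquitin ligase that pairs with PARP9, had a log2 fold change of 0.50 (SE 0.10, adjusted p = 0.00248). *Parp9*, which shares a start region with *Dtx3l*, had 21.9 ± 1.41 CPM in control and 24.4 ± 1.29 CPM in senescent MAFs (n = 3 each, SD). Its highest control value of 23.5 CPM lay just below its lowest senescent value of 23.6 CPM, but its log2 fold change of 0.16 (SE 0.08) did not pass the test (adjusted p = 0.104). *Parp9* and *Dtx3l* overlap over 682 bases, so their reads cannot be fully told apart. *Parp9* also overlaps the antisense gene *Gm15564* over 5854 bases. That gene had 355, 198 and 157 counts in control and 194, 271 and 789 counts in senescent libraries. *Parp12*, which restricts viral translation, stood at 38.8, 35.8 and 38.6 CPM in control and 26.8, 26.6 and 29.5 CPM in senescent libraries, a log2 fold change of -0.45 (SE 0.07, adjusted p = 0.000701).

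All 7 GTPase genes among the 43 were higher, against 36.2% of all tested genes. The MX proteins trap viral nucleoproteins, although C57BL/6 mice carry a defective *Mx1*, and the table annotates *Mx2* as a polymorphic pseudogene. *Mx2* stood at 0.762, 0.402 and 0.593 CPM in control and 2.54, 2.03 and 2.46 CPM in senescent libraries, a log2 fold change of 2.01 (SE 0.22). *Mx1* had 19, 25 and 8 counts in control and 37, 76 and 85 counts in senescent libraries, a log2 fold change of 1.44 (SE 0.32, adjusted p = 0.00429). *Igtp*, an immunity-related GTPase that acts on the vacuoles of parasites, stood at 4.71, 4.37 and 4.33 CPM in control and 12.6, 13.5 and 14.9 CPM in senescent libraries, a log2 fold change of 1.61 (SE 0.10). Its relative *Irgm1*, which regulates the other GTPases of that family, was more abundant and rose less, with 31.6 ± 0.927 CPM in control and 44.2 ± 3.25 CPM in senescent MAFs (n = 3 each, SD). The guanylate-binding proteins, which attack the membranes of bacteria and parasites, had smaller rises, with log2 fold changes of 0.99 for *Gbp3*, 0.41 for *Gbp2* and 0.39 for *Gbp7*. *Gbp3* and *Gbp7* lie within the span of the entry named *Gbp5*, and *Igtp* overlaps *Irgm2* over 7974 bases, so assignment of reads to these genes is uncertain.

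Of the 3 genes for proteins that act at membranes, *Bst2* and *Rtp4* were higher. *Bst2* (chromosome 8 of mm10 from 71534264 to 71537437), which encodes tetherin, a protein that holds budding viruses on the cell surface, stood at 10.1, 12.1 and 12.3 CPM in control and 61.1, 64.0 and 53.5 CPM in senescent libraries. This was the largest gain in CPM among ISGs with a fold change over 2, and its log2 fold change was 2.37 (SE 0.10, adjusted p = 5.57e-07). *Ifitm3*, which blocks fusion of viruses in endosomes, stood at 191, 195 and 196 CPM in control and 231, 227 and 192 CPM in senescent libraries. Senescent replicates 1 and 2 lay above control and replicate 3 within it. The log2 fold change of 0.16 (SE 0.08) did not pass the test (adjusted p = 0.102) and did without senescent replicate 3, at 0.25 (SE 0.03, adjusted p = 9.20e-06). *Rtp4*, which encodes a chaperone of receptors, had a log2 fold change of 0.97 (SE 0.10).

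*Rsad2* and *Cmpk2* are neighbours on chromosome 12 and act in turn, since CMPK2 makes nucleotide triphosphates and RSAD2 (viperin) turns CTP into a chain terminator. *Rsad2* stood at 0.682, 0.485 and 0.450 CPM in control and 2.45, 2.95 and 3.42 CPM in senescent libraries, a log2 fold change of 2.46 (SE 0.20). *Cmpk2* stood at 0.501, 0.469 and 0.409 CPM in control and 1.10, 1.56 and 0.936 CPM in senescent libraries, a log2 fold change of 1.38 (SE 0.25). Both rose, and in neither did the groups overlap. Of the others, *Ifi44* stood at 2.97, 2.81 and 2.51 CPM in control and 16.3, 16.4 and 21.9 CPM in senescent libraries, a log2 fold change of 2.72 (SE 0.15). *Xaf1*, a gene linked to cell death, doubled, with a log2 fold change of 1.09 (SE 0.10), and *Samd9l*, a growth-restraining antiviral gene, had one of 0.57 (SE 0.09). *Lgals3bp*, *Ifi27* and *Ifi35* had smaller fold changes. *Lgals3bp*, which encodes a secreted glycoprotein, stood at 181, 198 and 200.0 CPM in control and 286, 295 and 220.4 CPM in senescent libraries, a log2 fold change of 0.47 (SE 0.11), and *Ifi27* changed by 0.19 (SE 0.06, adjusted p = 0.0262) and *Ifi35* by 0.32 (SE 0.11, adjusted p = 0.0295).

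The calls of *Gbp7*, *Ifi27*, *Ifi35* and *Herc6* depended on which libraries entered the test. Without control replicate 1, 2 or 3, the adjusted p was 0.0598, 0.0874 and 0.137 for *Gbp7*, 0.0984, 0.0787 and 0.0743 for *Ifi35*, and 0.0954, 0.0705 and 0.100 for *Ifi27*. Without senescent replicate 1 it was 0.0956 for *Ifi35*, 0.0805 for *Ifi27* and 0.0602 for *Herc6*, and without senescent replicate 2 it was 0.0614 for *Gbp7*, 0.0875 for *Ifi35*, 0.0767 for *Ifi27* and 0.0558 for *Herc6*. For *Herc6*, it was 0.0590 without control replicate 3. Without senescent replicate 3 all 4 calls held, with log2 fold changes of 0.25 for *Gbp7* (adjusted p = 0.0373), 0.24 for *Ifi27* (adjusted p = 1.78e-05), 0.43 for *Ifi35* (adjusted p = 1.55e-05) and -0.65 for *Herc6* (adjusted p = 4.82e-06). The direction of these 4 genes was the same each time.

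Per kilobase, the order of the ISGs changed mainly below the top. In control MAFs *Ifitm3* led with 286 ± 3.64 RPKM, followed by *Ifi27* with 83.0 ± 1.35 RPKM, *Lgals3bp* with 67.8 ± 3.69 RPKM and *Bst2* with 15.1 ± 1.55 RPKM (SD, n = 3). In senescent MAFs the order was *Ifitm3* with 319 ± 31.7 RPKM, *Ifi27* with 94.4 ± 5.66 RPKM, *Lgals3bp* with 93.8 ± 14.3 RPKM and *Bst2* with 77.9 ± 7.08 RPKM (SD, n = 3). *Ifi27* and *Lgals3bp* differed there by less than their spread. *Isg15* followed with 16.3 ± 1.53 RPKM and *Ifit3* with 13.8 ± 0.951 RPKM, from 6.52 ± 0.600 and 2.57 ± 0.124 RPKM in control. *Isg15* was thus close to *Eif2ak2* and *Trim25* in senescent MAFs, which had 12.4 ± 1.81 and 11.4 ± 0.541 RPKM. At the bottom, *Oas3* reached 0.0523 ± 0.00560 RPKM and *Mx1* 0.241 ± 0.0504 RPKM in senescent MAFs.

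ISGs with a low control level had the larger fold changes. The 14 ISGs with the lowest control RPKM (0.0107 to 1.12) had a median log2 fold change of 2.12 and were higher in 14 of 14 cases, where 49.0% of all tested genes in that range of control RPKM were higher and 17.3% lower. The 15 in the middle had a median of 0.73, with 11 higher and 3 lower, where 30.4% of all genes in that range were higher and 37.4% lower. The 14 with the highest control level (6.31 to 286 RPKM) had a median of 0.17, with 7 higher and 3 lower, where 27.2% of all genes in that range were higher and 44.9% lower. All tested genes in the same 3 ranges of control RPKM had medians of 0.59, -0.08 and -0.15. The filter keeps a gene that has enough counts in either group. *Zbp1*, *Oas2*, *Oas3* and *Mx1*, all in the lowest range, passed it through their senescent libraries. In that range the filter thus favours rises, among ISGs and among all genes. Spearman's rho between the control level and the log2 fold change was -0.66 over the 43 ISGs and -0.38 over 17589 tested genes, as a description across genes that are not independent and whose control level enters both measures.

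**Figure D2:**
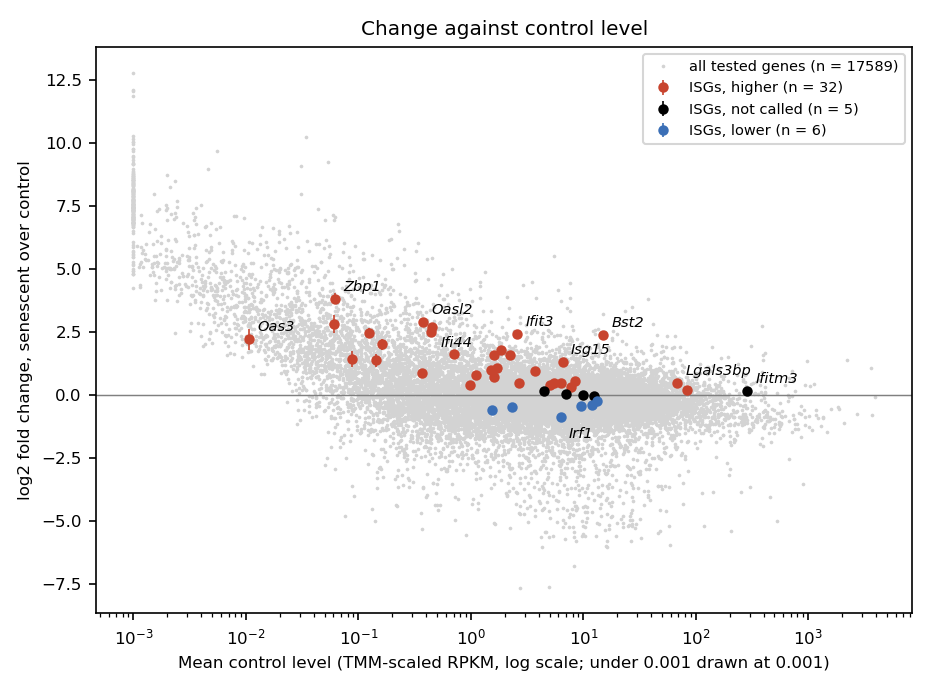
Log2 fold change (senescent over control) against the mean control level in TMM-scaled RPKM on a log axis, for all 17589 tested genes (grey) and the 43 ISGs (colored by call, bars are standard errors). The ISGs of low control level lie between 0.39 and 3.82 and those of high control level mostly near 0, apart from *Bst2* at 2.37 and *Isg15* at 1.32.

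Because of this, the summed level of the ISGs changed less than most single genes. The 43 genes together made up 1139, 1146 and 1141 CPM in control and 1463, 1477 and 1418 CPM in senescent libraries. *Ifitm3*, *Ifi27* and *Lgals3bp* held 43.2% to 45.3% of this sum in the control libraries, 45.0% and 45.2% in senescent replicates 1 and 2, and 38.2% in replicate 3. The other 40 genes summed to 624 to 647 CPM in control and 805, 810 and 877 CPM in senescent libraries, so senescent replicate 3 was the lowest library for the abundant trio and the highest for the rest within its group.

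That pattern went along with gene length. In senescent replicate 3, 28 of 43 ISGs were above the mean of the other senescent libraries. Of the 22 longer ISGs (3879 to 9306 bases) 19 were above, with a median of 0.18 on the log2 scale, and of the 21 shorter ISGs (678 to 3646 bases) 9 were, with a median of -0.15. *Oas2* (0.56), *Herc6* (0.46), *Ifi44* (0.42) and *Gbp7* (0.40) were the farthest above, and *Irf7* (-0.48), *Cmpk2* (-0.44) and *Lgals3bp* (-0.40) the farthest below. Without this library the log2 fold change was 2.61 for *Oas2*, 2.57 for *Ifi44*, 0.89 for *Irf7*, 1.56 for *Cmpk2* and 0.60 for *Lgals3bp*, and all 5 passed the test. Spearman's rho with length was 0.55 over the 43 ISGs and 0.18 over 14007 genes, all from that library. Control replicate 1, set against the mean of the other control libraries, had 0.35 over the ISGs and 0.20 over 13516 genes. The remaining libraries had negative values. Between the groups, rho of the log2 fold change with length was -0.19 over the ISGs and 0.09 over all tested genes. The shorter ISGs had a median log2 fold change of 1.32, with 19 of 21 higher, and the longer ISGs one of 0.48, with 13 of 22 higher. The part of length in the ISG results was not tested, and 18 ISGs had a fold change over 2 with or without senescent replicate 3.

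**Figure D3:**
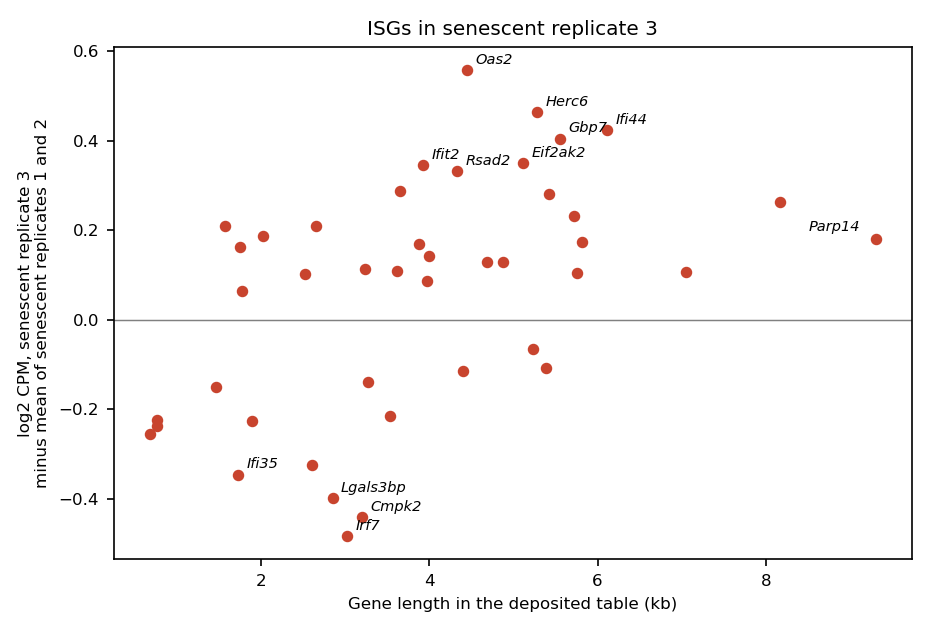
Log2 CPM of each of the 43 ISGs in senescent replicate 3 minus the mean of senescent replicates 1 and 2, against gene length in the deposited table in kilobases. Of the 22 longer genes 19 lie above 0, while 9 of the 21 shorter ones do.

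Promoters were read for the letters that interferon-activated factors bind. ISGF3 and other IRF factors bind elements whose core is a pair of GAAA units with 2 bases of any kind between them, and STAT dimers bind TTCNNNGAA, where N is any base. RefSeq windows of build GRCm38.p6, from 250 bases before to 50 bases after a gene start, matched 33 of the 43 ISGs, and *Dhx58*, *Ifi27*, *Mx1*, *Mx2*, *Oas2*, *Parp9*, *Parp14*, *Rtp4*, *Usp18* and *Zbp1* had no entry. Searched on both strands, with overlapping matches allowed, the GAAA pair was in a window of 17 of 33 ISGs (51.5%) and of 3.99% of 27025 genes. It was in 13 of 24 ISGs that were higher (54.2%) and in 4 of the 9 that were lower or not called (44.4%), given as counts with no test. TTCNNNGAA was in 9 of 33 ISGs (27.3%) and in 9.55% of all genes. A match is a description of letters and not proof of binding.

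The 5 ISGs with the largest rise among those with the GAAA pair before the start are shown with *Isg15* and *Irf1*, which had the largest decrease and no such core. Each line gives the 160 bases before the gene start, 5′ to 3′ on the strand of the gene, and capitals mark the GAAA pair on either strand. TTCNNNGAA is not marked, and the stretches of *Oas1a*, *Bst2* and *Irf1* held it.
Oas1a, chr5:120907526-120907685, minus strand: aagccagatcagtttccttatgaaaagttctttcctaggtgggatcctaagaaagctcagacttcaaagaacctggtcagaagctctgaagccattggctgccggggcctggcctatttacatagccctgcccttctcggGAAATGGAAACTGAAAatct
Rsad2, chr12:26456453-26456612, minus strand: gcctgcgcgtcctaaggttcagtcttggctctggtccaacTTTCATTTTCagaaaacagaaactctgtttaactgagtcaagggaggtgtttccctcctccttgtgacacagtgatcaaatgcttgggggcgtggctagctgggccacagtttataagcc
Ifit3, chr19:34583369-34583528, plus strand: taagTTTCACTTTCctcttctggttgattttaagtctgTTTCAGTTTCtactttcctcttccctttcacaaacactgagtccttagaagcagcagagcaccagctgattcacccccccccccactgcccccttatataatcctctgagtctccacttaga
Bst2, chr8:71537473-71537632, minus strand: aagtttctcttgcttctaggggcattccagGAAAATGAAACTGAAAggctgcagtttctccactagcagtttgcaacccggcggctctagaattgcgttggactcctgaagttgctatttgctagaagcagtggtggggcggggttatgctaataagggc
Oas3, chr5:120777660-120777819, minus strand: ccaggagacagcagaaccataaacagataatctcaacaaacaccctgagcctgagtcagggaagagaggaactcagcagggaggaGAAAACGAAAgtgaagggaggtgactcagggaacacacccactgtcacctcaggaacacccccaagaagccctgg
Isg15, chr4:156200819-156200978, minus strand: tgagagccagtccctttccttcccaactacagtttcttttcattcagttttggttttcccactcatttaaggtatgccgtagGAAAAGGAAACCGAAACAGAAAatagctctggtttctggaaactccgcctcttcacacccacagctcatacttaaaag
Irf1, chr11:53769854-53770013, plus strand: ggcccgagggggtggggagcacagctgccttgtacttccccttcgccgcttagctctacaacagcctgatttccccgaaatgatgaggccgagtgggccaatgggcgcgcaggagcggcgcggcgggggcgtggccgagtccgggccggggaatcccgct
In *Isg15*, 3 overlapping cores formed 1 run, the nearest beginning 66 bases before the start. In *Oas1a* and *Bst2*, 2 overlapping cores lay 14 and 124 bases before the start by their nearest member, and *Ifit3* held 2 separate cores. Among ISGs that did not rise, *Stat2* held a core 222 bases before the start, and *Ddx58*, *Ifitm3* and *Eif2ak2* held theirs after it. *Oasl2* and *Ifi44* rose more than any ISG shown and held none within their windows.

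The other genes of the pathway were examined from a list of ligands, receptors, kinases, sensors, regulators and further ISGs. It matched 129 genes, of which 98 were tested, 49 were higher (50.0%) and 26 lower (26.5%), against 36.2% and 34.1% of all tested genes. These counts and those by class below include genes that passed the filter through their senescent libraries, which favours rises. *Aim2*, *Trim30a*, *Slfn5*, *Gbp4* and *Oas1g* were among them.

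Interferon transcripts were close to absent. None of the 22 ligand genes passed the filter, 11 had 0 counts in every library, and all 22 together had 5, 4 and 4 counts in control and 37, 42 and 52 counts in senescent libraries. *Ifnb1*, which encodes interferon beta, had 1, 0 and 0 counts in control and 0, 1 and 2 counts in senescent libraries, and *Ifng* had 0 in every library. A count of 0 allows up to 3 counts, or 0.0355 to 0.0613 CPM by library, from counting error alone. *Ifnab* was the most abundant, with 0 counts in the control and 20, 9 and 31 counts in the senescent libraries. Its senescent mean of 0.281 CPM was 4.90-fold the level that 3 counts would give in the control libraries. *Ifnab* belongs to a family of near copies, between which reads may have been split. A difference in *Ifnb1* was not detectable at this depth, and interferon protein or interferon from the medium was not measured.

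The receptors for interferon gamma rose and that for type I interferon did not. *Ifngr1* had 53.0 ± 1.88 CPM in control and 86.2 ± 2.90 CPM in senescent MAFs and *Ifngr2* 36.2 ± 0.426 and 61.0 ± 1.85 CPM (n = 3 each, SD), with log2 fold changes of 0.70 and 0.75 (SE 0.06 for both). *Ifnar1* stood at 94.1, 90.8 and 91.2 CPM in control and 79.2, 80.8 and 78.3 CPM in senescent libraries, a log2 fold change of -0.21 (SE 0.05, adjusted p = 0.00617). *Ifnar2* had 0.09 (SE 0.06, adjusted p = 0.225), and passed the test without senescent replicate 3 (0.12, adjusted p = 0.0431). The receptor chains for interferon lambda, *Ifnlr1* and *Il10rb*, had log2 fold changes of 1.43 (SE 0.24) and 0.42 (SE 0.07), of which *Ifnlr1* had 0.434 ± 0.119 CPM in control and 1.18 ± 0.191 CPM in senescent MAFs (n = 3 each, SD).

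Downstream of the receptors, 3 of the 4 other kinase and STAT genes described fell and 1 rose, against 34.1% and 36.2% of all tested genes. *Tyk2*, *Stat3* and *Jak2* had log2 fold changes of -0.87 (SE 0.13), -0.75 (SE 0.06) and -0.33 (SE 0.08), and *Jak1* had one of 0.29 (SE 0.06, adjusted p = 0.00425). Beside these, *Stat2* was lower and *Irf9* did not pass the test, with the values given above.

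Among sensors and adaptors, 4 of 14 tested genes were higher (28.6%) and 7 lower (50.0%), against 36.2% and 34.1% of all tested genes. *Mb21d1* (cGAS, the DNA sensor), *Tmem173* (STING, its adaptor) and *Ikbke* (a kinase that activates IRF3) had log2 fold changes of -0.95 (SE 0.12), -0.82 (SE 0.06) and -1.05 (SE 0.08). *Mavs*, the adaptor of MDA5 and RIG-I, and *Tlr4* had log2 fold changes of 0.68 (SE 0.07) and 1.33 (SE 0.11). *Aim2*, a DNA sensor of the inflammasome in a cluster of related genes, had 0, 0 and 1 counts in control and 72, 94 and 127 counts in senescent libraries. Of the negative regulators, 3 of 11 were higher (27.3%) and 6 lower (54.5%), against the same 36.2% and 34.1%. *Adar*, the RNA editor that keeps MDA5 silent, and *Irf2*, a repressor of ISGs, rose by 0.56 (SE 0.06) and 0.33 (SE 0.07), and *Socs3*, *Samhd1* and *Pias1* fell by 1.28, 0.99 and 0.49 on the log2 scale. *Pias2* had a log2 fold change of 0.25 (adjusted p = 0.0333), a call lost without control replicate 1, 2 or 3 (adjusted p = 0.0582, 0.111 and 0.0869).

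**Figure D4:**
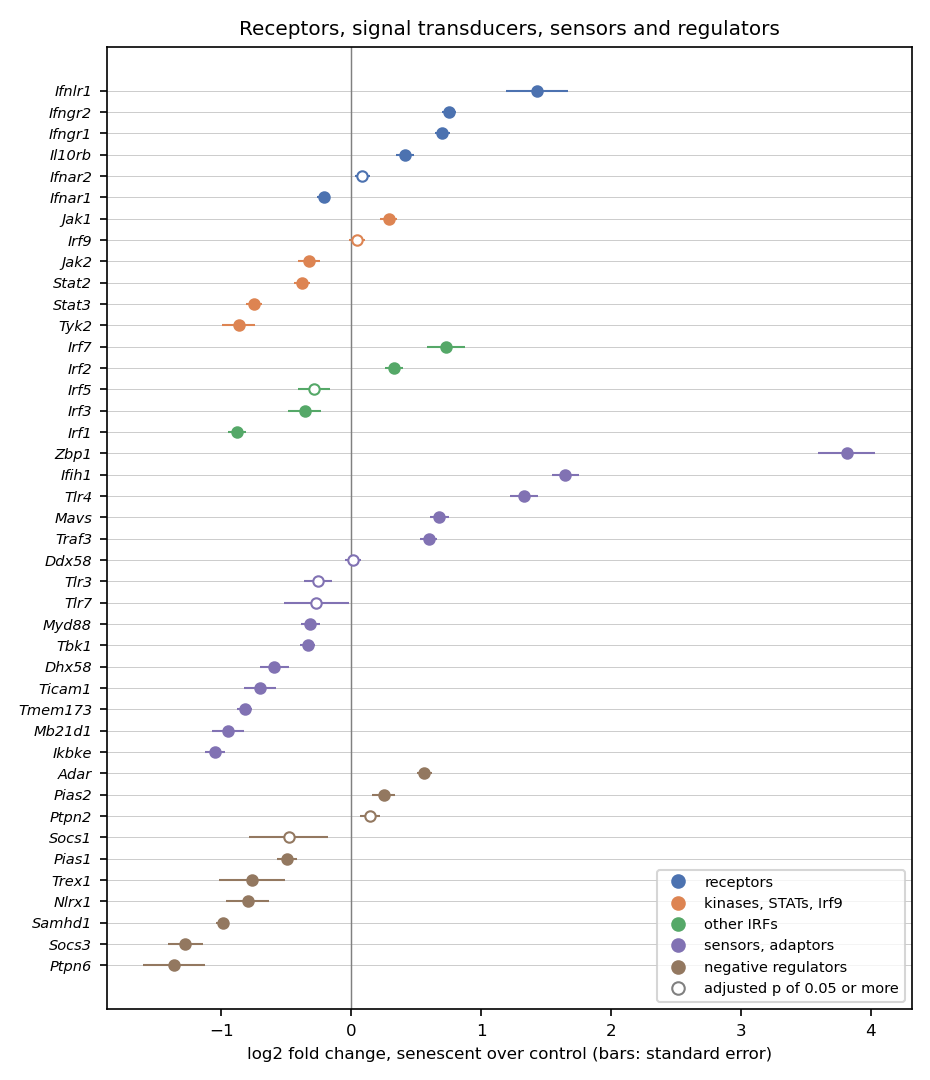
Log2 fold change (senescent over control) with its standard error for tested receptors, kinases and STATs with *Irf9*, other interferon regulatory factors, sensors with their adaptors, and negative regulators, grouped by color. Open points had an adjusted p of 0.05 or more, and *Aim2* is not drawn because its control counts were 0, 0 and 1. *Tyk2* lies at -0.87 and *Zbp1* at 3.82.

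Of the further ISGs on that list, 37 of 63 tested were higher (58.7%) and 9 lower (14.3%), against 36.2% and 34.1% of all tested genes. Some of the higher ones, *Trim30a* and *Slfn5* among them, passed the filter through their senescent libraries. *Nlrc5*, the activator of MHC class I genes, had 1.45 ± 0.132 CPM in control and 16.5 ± 0.988 CPM in senescent MAFs, *Trim30a* had 0.219 ± 0.0796 and 12.3 ± 1.80 CPM, and *B2m*, the light chain of MHC class I, had 342 ± 1.79 and 1025 ± 73.5 CPM (n = 3 each, SD). *Tapbp*, which loads peptides on MHC class I, fell by 0.90 on the log2 scale and *Ogfr* by 1.25. *Slfn9* had the largest decrease of the 63, with 63.9 ± 3.65 CPM in control and 5.16 ± 0.759 CPM in senescent MAFs and a log2 fold change of -3.63 (SE 0.12), while its relatives *Slfn2* and *Slfn5*, chosen after their values were seen, had log2 fold changes of 3.48 and 5.03.

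Markers of other cell types that make or respond to interferon were low and also moved. The 8 macrophage markers summed to 8.30 to 9.03 CPM in control and 18.8 to 21.8 CPM in senescent libraries. All 6 that were tested were higher, against 36.2% of all tested genes. Of these, *Itgam*, *Ptprc* and *Lyz2* passed the filter through their senescent libraries, which favours rises. *Adgre1* and *Tyrobp* were at or below 0.126 CPM in every library. *Itgam* had 0, 0 and 1 counts in control and 38, 29 and 39 counts in senescent libraries, *Ptprc* reached 1.52 CPM, *Csf1r* 4.38 CPM and *Lyz2* 4.98 CPM. Markers of dendritic or plasmacytoid cells without *Bst2* summed to 0.167 to 0.245 CPM in control and 1.34 to 1.68 CPM in senescent libraries, with *Siglech* at or near 0. T and NK cell markers summed to at most 0.189 CPM, endothelial markers to 2.43 to 2.83 CPM in control and 7.38 to 8.08 CPM in senescent libraries, and keratinocyte markers to 2.74 to 3.45 CPM and 17.3 to 18.0 CPM, the rise being carried by *Ivl*. The part of these cells in the ISG results was not tested.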

How the data were processed

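Polyadenylated RNA of 6 samples was sequenced from stranded libraries. The authors ran STAR against mm10 within the MAPRSeq pipeline, counted reads per gene with Subread, and deposited raw counts; the annotation release and strand setting are not given in the sources used here. Coordinates and gene lengths are those of the deposited table. Genes were kept with filterByExpr (17589 of 43346), scaled by TMM and compared with the robust quasi-likelihood test of edgeR 4.0.16 (R 4.3.3), two-sided, with the group as the only term and Benjamini-Hochberg adjustment over all tested genes. Adjusted p under 0.05 was a call, and p under 0.05 with an absolute log2 fold change over 1 is the rule of the study's methods. CPM and RPKM were computed here from the deposited counts. All 43 members are described. From the pathway list, receptors, ligands, kinases and STATs were taken, with the 3 smallest p in each direction of other classes; *Ifit3b*, *Slfn2* and *Slfn5* fall outside this rule, and 1 gene of the list is not reported here. The members and lists were chosen with earlier results of these data known. The test was checked on simulated data. An exact permutation test of 3 against 3 samples cannot go below 0.1. Alternatives were RLE scaling, library size alone, 2 filters, edgeR's exact test, DESeq2 1.42.0, a replicate term, and leaving out each library. Libraries of a group differed by more than sampling noise (1.76 to 19.9 times). The limit that a count of 0 allows covers counting error only.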

Additional observations from a re-analysis of the deposited data

How the results depend on the processing

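Across 13 alternatives, the count of ISGs called higher lay between 29 and 34 and that of ISGs called lower between 5 and 7, and 29 of the 32 higher and 5 of the 6 lower ISGs kept their call in every alternative that tested them. *Zbp1*, *Oas2*, *Oas3* and *Mx1* left the test when at least 10 counts were required in every library. The median log2 fold change of the ISGs was 0.61 with that filter, in which 39 ISGs were tested, and 0.89 with scaling by library size alone, which also moved the median of all genes from 0.01 to 0.09. Leaving out 1 library at a time, it lay between 0.75 and 0.89. The sign of *Eif2ak2* turned with RLE scaling (0.0023), library size alone (0.0598) and the 10-count filter (0.0304), and without control replicate 1 or senescent replicate 1 or 2. That of *Ddx58* turned without control replicate 3 or senescent replicate 3. Leaving out 1 library at a time, *Eif2ak2* lay between -0.137 (without senescent replicate 3) and 0.0638, and *Ddx58* between -0.0171 and 0.0549. Library size alone and the 10-count filter called *Parp9* (adjusted p = 0.0293 and 0.0453, edgeR) and *Ifitm3* (0.0258 and 0.0483), and library size alone called *Ifnar2* (0.0400). Without a filter the call of *Ifi27* was lost (0.0529). The cause was not tested.

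For samples with the same replicate number, correlations of their deviations from the group means were -0.23, 0.19 and -0.17 over the tested genes. Not every sample correlated best with its own number, and control replicate 1 did so with senescent replicate 3 (0.35). Deviations within a group depend on each other and senescent replicate 3 stood apart. These values therefore cannot decide whether the numbers pair the samples. With a replicate block, 29 ISGs passed the test upward and 6 downward at an ISG median of 0.81, and the calls of *Gbp7*, *Ifi35*, *Ifi27* and *Pias2* were lost (adjusted p = 0.0829, 0.0575, 0.0672 and 0.0512, edgeR). Depth limits *Oas3* and the interferon genes, which had at most 31 counts in a library.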
